A study of Mus musculus with 4 samples.

Results

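The histone genes of the mouse were described in single cells of irradiated and mock-treated lungs that carried a tumour. They were taken by symbol from the genes measured in all 4 tables: the symbols that begin Hist1h to Hist4h, H2af, H3f or H1f gave 71 of 20640 genes, with 1 gene left out by the rule. Of these, 59 have a Hist symbol and are called replication-dependent here by that name (5 for the linker histone H1, 15 for H2A, 17 for H2B, 10 for H3 and 12 for H4), and 12 are variant genes. All 71 were found by symbol in the annotation, where 5 are pseudogenes and 1, H3f3aos, is an antisense RNA of H3f3a. The replication-dependent genes lie in clusters, with 50 of the 59 on chromosome 13, 5 on chromosome 3, 3 on chromosome 11 and 1 on chromosome 6.

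Replication-dependent histone mRNAs are made in S phase to package newly copied DNA. They are the only animal mRNAs known to end without a poly(A) tail: they end just after a short stem-loop, which the stem-loop binding protein Slbp holds and which the U7 particle helps to cut. Some of these genes can also make a longer, polyadenylated form, known from cells that have stopped dividing. Variant genes such as H3f3a and H3f3b, which both encode H3.3, make ordinary polyadenylated mRNAs through the whole cell cycle, and their proteins replace the replication-dependent ones in chromatin outside S phase.

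The cells came from lungs of female C57BL/6 mice of 8 weeks that had received 150000 HKP1 cells, a mouse lung adenocarcinoma line, by tail vein. Tumour burden was read by bioluminescence on day 6 so that the groups began alike. The irradiated mice had 4 Gy on each of 3 days, day 10 to 12, and the mock-treated mice had 0 Gy on the same days. Lungs were taken 24 to 48 hours after the last dose, with 4 mice per treatment by the design text, and live (DAPI-negative) cells were sorted into CD45- cells, which lack the common leukocyte antigen, and CD45+ cells, the leukocytes. Each dose and sort gave 1 library of 10x Genomics 3′ chemistry, which primes on poly(A). No label ties a cell to a mouse, so each group is 1 sample: there is no test and no p-value, and each interval is a 95% interval of counting error alone.

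Among CD45- cells the 4 Gy library summed to 12448164 UMIs over 4313 barcodes, and the 0 Gy library to 14885765 UMIs over 5979. Among CD45+ cells the 4 Gy library summed to 36423571 UMIs over 9608 barcodes, and the 0 Gy library to 24045901 UMIs over 5415. Any pair of libraries shared 3 to 17 barcodes. Classes were gated on marker genes, with at least 2 markers detected and the class with the most taken, and "-like" marks a name given by marker genes only. With at least 50 cells in both libraries there were 3 classes of CD45- cells (endothelial-like, aerocyte-like, a capillary endothelial subtype, and tumour-epithelial-like) and 7 of CD45+ cells (B-like, T-like, NK-like, neutrophil-like, classical and nonclassical monocyte-like, interstitial macrophage-like). Summed leukocyte markers stood at 42.6 and 59.3 CPM in endothelial-like cells of 4 Gy and 0 Gy. In the 60 tumour-epithelial-like cells of 4 Gy they stood at 232 CPM, against none in the 132 cells of 0 Gy. Alveolar macrophage markers stood at 879 CPM in those 60 cells, against 31.2 CPM at 0 Gy, and neutrophil markers at 403 CPM, against none at 0 Gy. Fibroblast markers went the other way, at 81.3 CPM at 4 Gy and 578 CPM at 0 Gy. The part of these cells in the values of that class was not tested.

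The 3′ sequences are shown first, because the library primes on poly(A) and histone mRNAs differ in how they end. Which of these ends the primer reached was not tested. A stem-loop was searched on the transcript's own strand as a stem of 6 bases that begins GG, goes on with 3 pyrimidines and ends in T, then 4 loop bases of which the first is T and the third is not G, then the perfect reverse complement of the stem. The annotated transcript held it in 41 of 59 replication-dependent genes and in 0 of 12 variant genes, against 62 of 21877 protein-coding genes of the genome, or 0.283%, of which 15 are not histone genes. The next lines give the stem-loop with up to 5 bases on each side (build GRCm38, which is mm10, with its GENCODE annotation, transcript strand, 5′ to 3′), with the stem in capitals. The first 3 genes encode H2A, Hist1h3c encodes H3, Hist1h4i and Hist2h4 encode H4, and Hist1h1c encodes H1.2.
Hist1h2ap: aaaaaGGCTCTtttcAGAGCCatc
Hist1h2ae: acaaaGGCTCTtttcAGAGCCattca
Hist3h2a: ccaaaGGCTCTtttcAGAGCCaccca
Hist1h3c: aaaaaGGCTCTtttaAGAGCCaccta
Hist1h4i: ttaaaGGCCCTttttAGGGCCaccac
Hist2h4: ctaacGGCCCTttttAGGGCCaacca
Hist1h1c: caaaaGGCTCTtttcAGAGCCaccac
The H2A, H3 and H1 genes shown share one stem and the H4 genes another, and the loops shown differ only in the last base.

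What follows the stem-loop in the annotation differs between genes. Of the 41 genes, 20 have transcripts that end within 100 bases of it, such as Hist1h2ap with 3 bases after it and Hist1h3c with 74. The other 21 run on for at least 100 bases, such as Hist1h2ae for 151, Hist1h4i for 330, Hist1h1c for 840, Hist2h4 for 1257 and Hist3h2a for 1643. A poly(A) signal (AATAAA or ATTAAA) was sought in the last 50 bases of each gene's longest transcript. It lies there in 10 of these 21, in 2 of the 20 short ones and in 7 of the 12 variant genes. For Hist1h2bp, a short one, the transcript with the signal is not the one with the stem-loop. The last 30 bases of 4 transcripts are given with the signal in capitals, from 2 replication-dependent genes that run on and from 2 variant genes.
Hist1h2ae: ccAATAAAtgggtcaatttttttcagattc
Hist1h1c: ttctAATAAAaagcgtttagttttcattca
H2afj: aggacaAATAAAgaatatattacaaatctg
H3f3a: tgaaaaatAATAAAagtaccaatagaagaa
In the other 18 replication-dependent genes no stem-loop lies in the annotated transcript, and in 10 of them that transcript is under 420 bases. For those genes the annotation may stop at the coding sequence, so a missing match says only that these letters are not in that transcript.

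Histone genes took a small and even share of the RNA. They held 0.353% of all UMIs in CD45- cells of 4 Gy and 0.359% at 0 Gy, and 0.355% in CD45+ cells of 4 Gy and 0.407% at 0 Gy. Most of these UMIs were of variant genes. Replication-dependent genes held 20.7% (20.3% to 21.1%) of histone UMIs in CD45- cells of 4 Gy and 21.0% (20.6% to 21.3%) at 0 Gy, and 20.2% (20% to 20.4%) in CD45+ cells of 4 Gy and 19.4% (19.2% to 19.7%) at 0 Gy, with exact binomial intervals. As the library primes on poly(A), these shares describe captured 3′ tags, which are not corrected for length, and not the mRNA a cell holds. H3f3a and H3f3b alone held 72.5% to 76.1% of variant UMIs over the 4 libraries. At 0 counts were 2 members in CD45- cells of 4 Gy (Hist1h2ag and Hist1h3g), 1 at 0 Gy (Hist1h4f) and 0 in both CD45+ libraries.

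Among replication-dependent genes, those that run on past the stem-loop held the larger part of the tags in CD45- cells and a smaller part in leukocytes. Genes whose transcript runs on held 59.2% of replication-dependent UMIs in CD45- cells of 4 Gy and 56.8% at 0 Gy, and 43.8% in CD45+ cells of 4 Gy and 36.4% at 0 Gy. Genes whose transcript ends near the stem-loop held 9.43% in CD45- cells of 4 Gy and 14.3% at 0 Gy, and 34.5% in CD45+ cells of 4 Gy and 41.8% at 0 Gy. Of the genes that end near it, Hist1h2ap alone held 7203 of 9007 counts in CD45+ cells of 4 Gy and 6692 of 7941 at 0 Gy. In CD45- cells it held 313 of 858 at 4 Gy and 975 of 1600 at 0 Gy. The part of this group in leukocytes is thus mostly that of 1 gene. The genes with the most tags differed likewise between sorts. In CD45- cells they were Hist1h2bc, for H2B, with 160.0 CPM at 4 Gy and 131 CPM at 0 Gy, and Hist1h1c with 112.5 CPM at 4 Gy and 114 CPM at 0 Gy. In CD45+ cells it was Hist1h2ap, for H2A, with 198 CPM at 4 Gy and 278 CPM at 0 Gy. Here CPM is counts per 1000000 UMIs of the pooled cells. Hist1h2ap lies at chr13:21833026-21833507 on the minus strand. Its coding sequence of 393 bases is 96.9% to 100.0% identical to those of 9 other Hist1h2a genes. Reads of such near-identical genes may have been split between them, so single H2A genes are uncertain and their sum is given beside them.

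**Figure D1:**
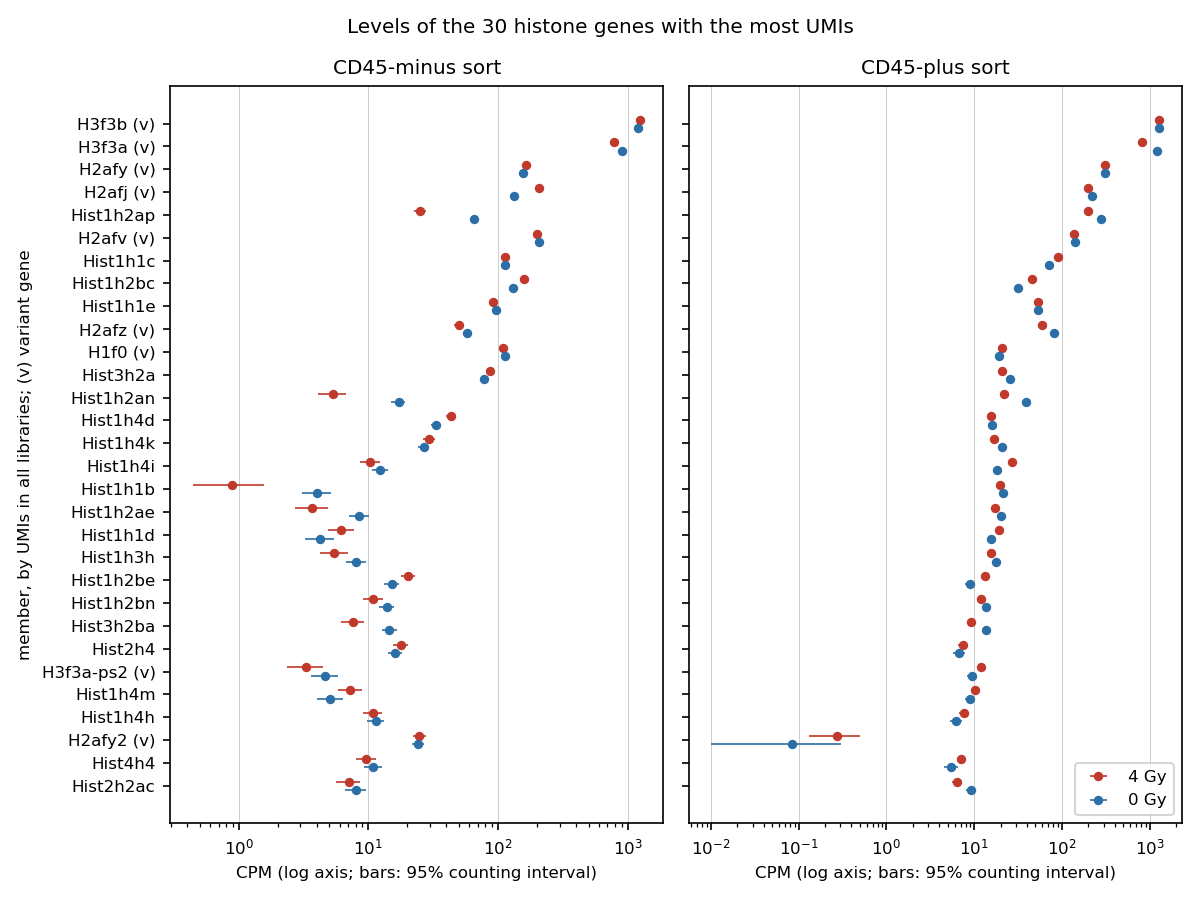
Level in CPM (log axis) of the 30 histone genes with the most UMIs, in CD45- cells on the left and CD45+ cells on the right, with 4 Gy in red and 0 Gy in blue and 95% counting intervals as bars; (v) marks variant genes. H3f3b and H3f3a stand highest in every library, and Hist1h2ap stands at 25.1 CPM at 4 Gy and 65.5 CPM at 0 Gy in CD45- cells, below its level in CD45+ cells.

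The replication-dependent sum was packed into fewer leukocytes than the variant sum, with little such gap in CD45- cells, and among families this held for H2A. Of the CD45+ cells with such a UMI, 7.65% held 50% of the replication-dependent sum at 4 Gy and 3.92% at 0 Gy. For the variant sum these shares were 19.5% and 21.1%. In CD45- cells they were 20.8% at 4 Gy and 17.2% at 0 Gy for the replication-dependent sum. For the variant sum they were 19.1% and 19.3% there. By family in CD45+ cells, the share was 1.05% at 4 Gy and 0.95% at 0 Gy for the H2A sum. It was 19.2% and 18.1% for H1, 22.3% and 22.8% for H2B, 23.1% and 18.7% for H3, and 27.1% and 26.3% for H4. In CD45- cells the H2A share was 27.3% at 4 Gy and 8.83% at 0 Gy. With at least 20 counts in a library, 27 and 33 replication-dependent genes could be described in CD45- cells of 4 Gy and 0 Gy, and 50 and 48 in CD45+ cells, with 11 variant genes each time. The cell with the most counts of a gene held a median of 2.22% of a replication-dependent gene's counts in CD45- cells of 4 Gy and 3.57% at 0 Gy, and 2.52% in CD45+ cells of 4 Gy and 4.05% at 0 Gy. For variant genes these medians were 1.29% at 4 Gy and 1.16% at 0 Gy in CD45- cells, and 0.682% at 4 Gy and 1.02% at 0 Gy in CD45+ cells. This gap between the medians is seen in every library. Replication-dependent genes also have fewer counts each, and a gene with few counts has a larger share in its top cell by arithmetic.

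Hist1h2ap was packed into few cells. A set of 23 cells held 50% of all Hist1h2ap counts in CD45+ cells of 4 Gy, against 16 cells at 0 Gy, and 30 cells did in CD45- cells of 4 Gy, against 4 cells at 0 Gy. For the sum of all replication-dependent genes it took 500 CD45+ cells at 4 Gy and 151 at 0 Gy. For H3f3b it took 1557 cells at 4 Gy and 992 at 0 Gy in the same sort. Hist3h2a, another H2A gene, was spread widely, with 50% of its counts in 292 CD45+ cells at 4 Gy and 233 at 0 Gy. In CD45- cells of 0 Gy, 1 cell held over 20% of the counts of 5 of 33 replication-dependent genes, against 1.27% of all genes with at least 20 counts. These were Hist1h2an (31.8%), Hist1h2ak (28.6%), Hist1h1b (26.7%), Hist1h2ae (22.2%) and Hist1h2ap (21.3%). No histone gene passed that share in CD45- cells of 4 Gy, where 1.82% of all genes did, in CD45+ cells of 4 Gy, where 1.16% did, or in CD45+ cells of 0 Gy, where 0.789% did.

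**Figure D2:**
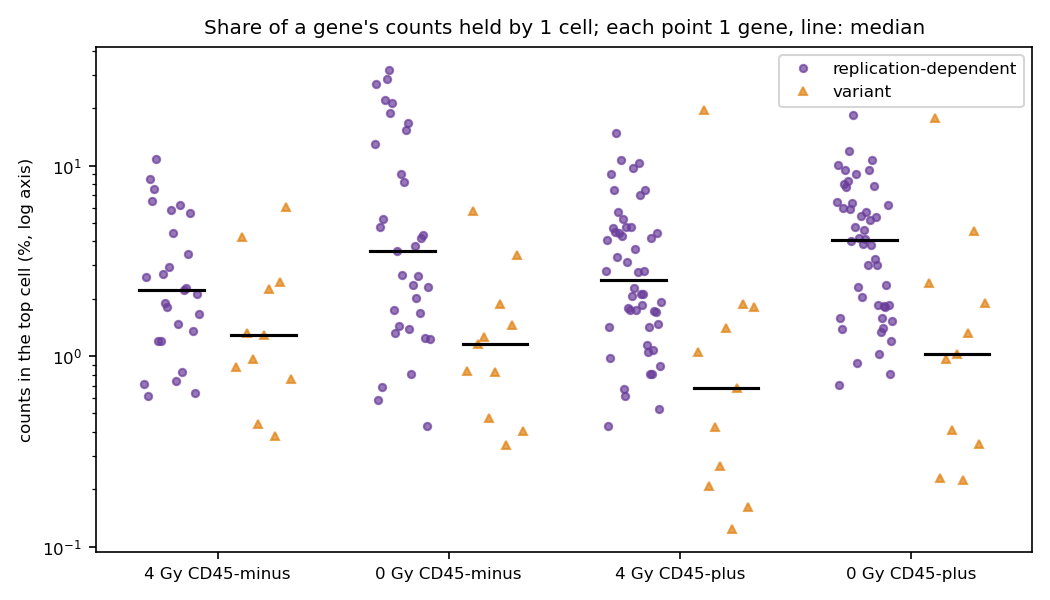
Share of a gene's counts held by its top cell (percent, log axis) in each library, for replication-dependent genes (circles) and variant genes (triangles) with at least 20 counts, with the median as a line. The replication-dependent median lies above the variant median in all 4 libraries, and the highest points, up to 31.8%, are in CD45- cells of 0 Gy.

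Cells in cycle were gated on at least 3 of 30 cell-cycle markers, none of them a histone gene, so that the histone levels play no part in the gate. In leukocytes the replication-dependent sum stood at 1768 CPM in cycling cells and 501 CPM in other cells at 4 Gy, a ratio of 3.53 (3.445 to 3.62). At 0 Gy it stood at 2108 CPM in cycling cells and 486.5 CPM in other cells, a ratio of 4.33 (4.21 to 4.46). The variant sum was close to level in leukocytes, at 0.958 (0.942 to 0.974) at 4 Gy and 0.946 (0.929 to 0.964) at 0 Gy. In CD45- cells the replication-dependent ratio was 1.02 (0.952 to 1.09) at 4 Gy and 2.09 (1.999 to 2.19) at 0 Gy, with 111 cycling cells at 4 Gy and 150 at 0 Gy. The variant ratio there was 1.225 (1.185 to 1.27) at 4 Gy, above the replication-dependent one, and 1.34 (1.30 to 1.37) at 0 Gy. The cycling gate picks classes unevenly. In CD45+ cells it took 9.76% of T-like and 3.9% of B-like cells at 4 Gy, and 12.5% and 3.7% at 0 Gy. In CD45- cells it took 46.7% of tumour-epithelial-like and 1.28% of endothelial-like cells at 4 Gy, and 37.1% and 1.06% at 0 Gy. In ratios over a whole sort, here and below, class and cycling cannot be told apart. The gate also picks deeper cells. Cells with both S-phase and mitosis markers had a median of 13980.0 UMIs at 4 Gy and 13947 at 0 Gy in the CD45+ sort, and cells with neither 2521 at 4 Gy and 2995.5 at 0 Gy.

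The families differed widely in this. The summed H2A genes stood at a cycling ratio of 10.2 (9.82 to 10.7) in leukocytes of 4 Gy and 10.3 (9.89 to 10.8) at 0 Gy, and the H3 genes at 3.41 (3.05 to 3.82) and 3.73 (3.24 to 4.29). The H1 genes stood at 1.71 (1.62 to 1.805) at 4 Gy and 1.89 (1.77 to 2.03) at 0 Gy, the H2B genes at 1.43 (1.33 to 1.54) and 1.51 (1.37 to 1.655), and the H4 genes at 1.11 (1.02 to 1.21) and 1.18 (1.06 to 1.31). The members with the widest gaps included Hist1h3c, at 41.2 (17.7 to 117.5) at 4 Gy and 26.0 (8.93 to 103) at 0 Gy, Hist1h1b, which encodes H1.5, at 20.5 (17.0 to 24.9) and 24.3 (19.1 to 31.4), and Hist1h2ap at 14.7 (13.96 to 15.55) and 14.6 (13.75 to 15.4). Some genes with a Hist name were lower in cycling leukocytes, taken over all classes of the sort. Hist2h4 stood at 0.407 (0.248 to 0.636) at 4 Gy and 0.5455 (0.314 to 0.8935) at 0 Gy, and Hist3h2a at 0.731 (0.585 to 0.904) and 0.502 (0.381 to 0.651).

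The cycling ratios were lower for genes whose transcripts run on past the stem-loop. Over the genes with at least 20 counts in both CD45+ libraries, the 14 whose transcript ends near the stem-loop had a median cycling ratio of 4.015 at 4 Gy and 4.36 at 0 Gy, and the 19 that run on had 1.55 and 1.07. The 13 without a stem-loop in the annotation had 3.80 at 4 Gy and 3.12 at 0 Gy, and the 11 variant genes 0.9405 and 1.30. A ratio over 5 was reached by 6 of the 14, 1 of the 19, 4 of the 13 and 0 of the 11 at 4 Gy, where 1.06% of all genes did. At 0 Gy it was reached by 6, 1, 5 and 0, where 1.14% of all genes did. The 1 gene that runs on and passed was Hist1h2ae, at 11.1 (9.36 to 13.3) and 13.2 (10.7 to 16.4), whose coding sequence is 98.5% identical to that of Hist1h2ap. Over the 57 genes the ratios of the 2 libraries ranked alike (Spearman's rho 0.87), as a description only, since the points share cells and near-identical sequence. The 4 groups of genes overlap in their ratios.

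**Figure D3:**
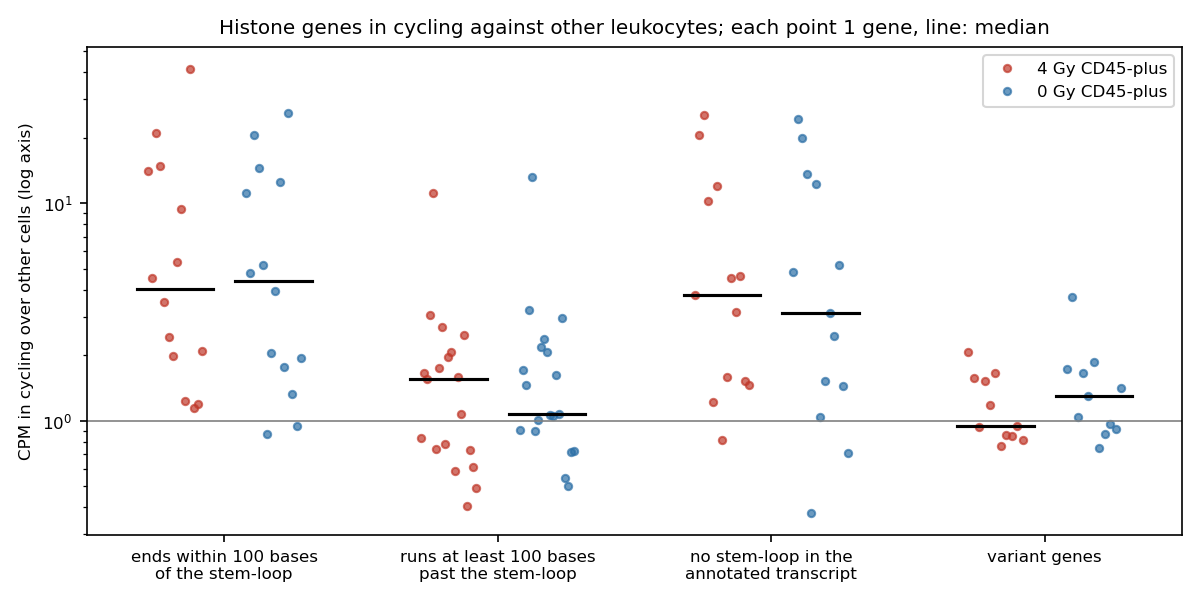
Ratio of CPM in cycling over other leukocytes (log axis) for each histone gene, grouped by the end of its annotated transcript, with 4 Gy in red, 0 Gy in blue and medians as lines. Genes that end near the stem-loop reach 41.2, genes that run on reach down to 0.407, and the variant genes lie between 0.749 and 3.715.

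High replication-dependent levels were found in few of the cycling cells. In CD45+ cells with both S-phase and mitosis markers the replication-dependent sum stood at 6860.0 CPM in 86 cells of 4 Gy and at 8544 CPM in 59 cells of 0 Gy. With S-phase markers alone it stood at 373 CPM in 395 cells of 4 Gy and 374 CPM in 260 cells of 0 Gy, and with neither at 498 CPM at 4 Gy and 482 CPM at 0 Gy. The cells with S-phase markers alone, whose median depth was 7475 UMIs at 4 Gy and 7923 at 0 Gy, did not stand above cells with neither. Hist1h2ap alone stood at 3904 CPM at 4 Gy and 5175 CPM at 0 Gy in cells with both sets of markers.

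The comparison of doses asks how histone mRNA levels differ between irradiated and mock-treated lungs and tumours. Taken over each sort as a whole, both sums were near level in CD45- cells and lower at 4 Gy in CD45+ cells. In CD45- cells the replication-dependent sum stood at 731 CPM at 4 Gy and 753.5 CPM at 0 Gy (0.970, 0.943 to 0.997), and the variant sum at 2801 CPM at 4 Gy and 2839 CPM at 0 Gy (0.987, 0.973 to 1.001), with the ratio of 4 Gy over 0 Gy and its interval in parentheses. In CD45+ cells the replication-dependent sum stood at 717 CPM at 4 Gy and 790.5 CPM at 0 Gy (0.908, 0.891 to 0.925), and the variant sum at 2833 CPM at 4 Gy and 3282 CPM at 0 Gy (0.863, 0.855 to 0.871). With cycling cells left out the replication-dependent ratios were 1.095 in CD45- cells and 1.03 in CD45+ cells, on the other side of 1. A sum over a sort cannot tell fewer cells that make a histone mRNA from less of it per cell.

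Beneath the sums the families differed, with the H2A, H2B and H4 sums each in the same direction in both sorts. The H2A sum was lower at 4 Gy, at 136 CPM at 4 Gy and 187 CPM at 0 Gy (0.728, 0.685 to 0.774) in CD45- cells and 289 CPM at 4 Gy and 404 CPM at 0 Gy (0.714, 0.695 to 0.734) in CD45+ cells. Its top cell held 2.72% of the counts in CD45- cells of 4 Gy and 11.9% at 0 Gy. Hist3h2a, with 1087 of the 1693 H2A counts in CD45- cells of 4 Gy, went the other way there. It stood at 87.3 CPM at 4 Gy and 78.7 CPM at 0 Gy (1.11, 1.02 to 1.21), and at 0.809 (0.726 to 0.901) in CD45+ cells. The H2B sum was higher, at a ratio of 1.135 (1.08 to 1.195) in CD45- cells and 1.12 (1.07 to 1.18) in CD45+ cells, and so was the H4 sum, at 1.095 (1.02 to 1.17) and 1.11 (1.05 to 1.17). The H1 sum was at 0.958 (0.910 to 1.01) in CD45- cells and 1.11 (1.07 to 1.16) in CD45+ cells. The H3 sum, at 0.8575 (0.706 to 1.04) and 1.06 (0.972 to 1.16), had both intervals across 1. Without cycling cells the H2A ratio was 1.12 in CD45- cells, on the other side of 1, and 0.762 (0.725 to 0.801) in CD45+ cells.

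In CD45- cells 41 replication-dependent genes had at least 20 counts over both libraries. Of these 2 were at least 1.5-fold higher at 4 Gy, where 9.5% of all genes were, and 11 were at least 1.5-fold lower, where 7.3% of all genes were. Of 12 variant genes 1 was higher and 2 were lower. The lower replication-dependent genes were 5 H2A genes, 3 H2B genes (Hist1h2bm, Hist1h2br and Hist3h2ba), the H1 genes Hist1h1a and Hist1h1b, and a pseudogene, Hist3h2bb-ps, with 8 of the 11 intervals below 1. In CD45+ cells 57 replication-dependent genes were measured and 3 were higher, where 8.33% of all genes were, and 5 were lower, where 5.47% of all genes were, which is near the background. None of 11 variant genes passed 1.5-fold in CD45+ cells.

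Hist1h2ap, Hist1h2an and Hist1h2ae were lower in CD45- cells of 4 Gy. Hist1h2ap stood at 25.1 CPM at 4 Gy and 65.5 CPM at 0 Gy (0.384, 0.337 to 0.4365), Hist1h2an at 5.30 and 17.1 CPM (0.3095, 0.232 to 0.407) and Hist1h2ae at 3.695 and 8.46 CPM (0.437, 0.3045 to 0.6165). Hist1h2ac, 98.7% identical to Hist1h2ap in its coding sequence, stood on the other side of 1 at 3.78 CPM at 4 Gy and 2.55 CPM at 0 Gy (1.48, 0.944 to 2.33). Hist1h1b stood at 0.884 CPM at 4 Gy and 4.03 CPM at 0 Gy (0.219, 0.104 to 0.421). The 4 ratios below 1 stood above 1 with cycling cells left out: 1.355 for Hist1h2ap, 1.22 for Hist1h2an, 1.24 for Hist1h2ae and 1.165 for Hist1h1b. Few counts remained there. Hist1h2ap had 164 counts at 4 Gy and 141 at 0 Gy, Hist1h2an 44 and 42, and Hist1h2ae 33 and 31. Hist1h1b had 3 at 0 Gy. No intervals are given for these 4 values, so a level above 1 is not shown by them. In cycling CD45- cells Hist1h2ap stood at 123.5 CPM at 4 Gy and 467 CPM at 0 Gy, and in other cells at 14.6 CPM at 4 Gy and 10.8 CPM at 0 Gy.

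In endothelial-like cells, 3585 at 4 Gy and 4900 at 0 Gy, 1 mock-treated cell held much of this. Hist1h2ap stood at 14.9 CPM at 4 Gy and 49.2 CPM at 0 Gy (0.303, 0.2475 to 0.369), and the top cell of 4 Gy held 5.47% of 128 counts while the top cell of 0 Gy held 42.4% of 491. Likewise 1 cell held 55.5% of the Hist1h2an counts, 38.9% of the Hist1h2ae counts and 21.7% of the Hist1h3h counts at 0 Gy. The 4 Gy cell with the most H2A counts had 11 of them among 4883 UMIs, with 7 of the 30 cell-cycle markers detected. The 0 Gy cell with the most H2A counts had 331 of them among 12422 UMIs, with 24 markers detected, while the class had a median of 1809.5 UMIs at 0 Gy.

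The doses differed in cycling endothelial-like cells, and in the opposite direction in the others. In the 46 cycling cells of 4 Gy and the 52 of 0 Gy the H2A sum stood at 128 CPM at 4 Gy and 1467 CPM at 0 Gy (0.0875, 0.0625 to 0.120). The top cell of 0 Gy held 331 of the 665 H2A counts of those cycling cells, while the cycling cells of 4 Gy had 42 in all. Outside the cycling gate the H2A sum was at 137 CPM at 4 Gy and 119 CPM at 0 Gy (1.15, 1.06 to 1.25), and Hist1h2ap at 13.5 CPM at 4 Gy and 7.775 CPM at 0 Gy (1.73, 1.28 to 2.355). Summed mitosis markers moved with the class value, at 24.0 CPM at 4 Gy and 60.8 CPM at 0 Gy, while S-phase markers stood at 174 CPM at 4 Gy and 156 CPM at 0 Gy. Their part in the H2A difference was not tested.

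Over the endothelial-like class 35 replication-dependent genes were measured, of which 4 were at least 1.5-fold higher, where 10.1% of all genes were, and 11 lower, where 6.89% were. Besides the H2A genes, Hist3h2ba, an H2B gene at chr11:58948920-58949533 with a poly(A) signal near its end, stood at 8.05 CPM at 4 Gy and 17.15 CPM at 0 Gy (0.469, 0.3495 to 0.624), with top cells at 2.90% of its counts at 4 Gy and 2.92% at 0 Gy. Hist1h3h, for H3, stood at 4.66 CPM at 4 Gy and 9.23 CPM at 0 Gy (0.5055, 0.340 to 0.740) and was at 0.908 as a mean over cells. The higher ones included Hist1h2bl, another H2B gene, at 7.93 CPM at 4 Gy and 4.81 CPM at 0 Gy (1.65, 1.12 to 2.435), Hist1h1d, which encodes H1.3, at 6.30 and 4.01 CPM (1.57, 1.02 to 2.425), and Hist1h2ac, for H2A, at 4.31 and 2.51 CPM (1.72, 1.01 to 2.98). Hist3h2ba thus differed across many cells, and the intervals of Hist1h1d and Hist1h2ac came close to 1.

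**Figure D4:**
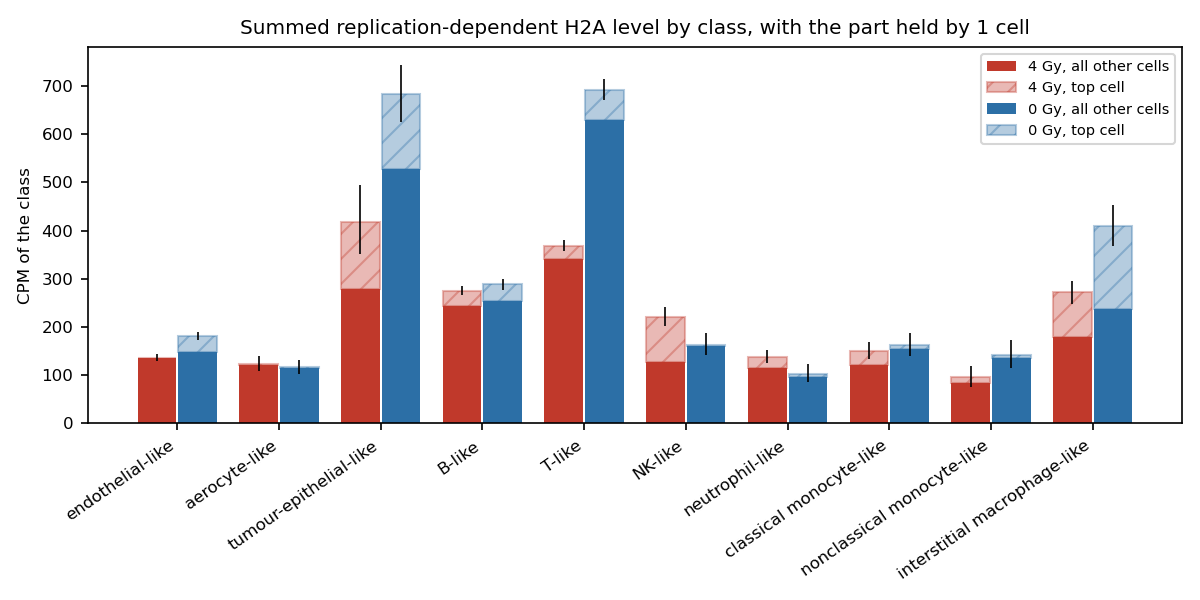
Summed replication-dependent H2A level (CPM of the class) in each class, 4 Gy in red left of 0 Gy in blue, with the hatched part held by the cell with the most H2A counts and 95% counting intervals as bars. In endothelial-like cells the top cell holds 0.939% at 4 Gy and 18.4% at 0 Gy, and in NK-like cells 41.9% at 4 Gy and 2.30% at 0 Gy.

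H2afj was the variant gene with the highest ratio in the endothelial classes. It encodes H2A.J, which in human fibroblasts is known to build up in senescence with lasting DNA damage, and lies at chr6:136808244-136810074 on the plus strand. In endothelial-like cells H2afj stood at 192 CPM at 4 Gy and 103 CPM at 0 Gy (1.85, 1.71 to 2.01), with the top cells at 0.426% of its counts at 4 Gy and 0.679% at 0 Gy. In aerocyte-like cells it stood at 208 CPM at 4 Gy and 116 CPM at 0 Gy (1.80, 1.53 to 2.11). The other 8 classes lay between 0.768 (0.679 to 0.869), in classical monocyte-like cells, and 1.05 (0.929 to 1.20), in neutrophil-like cells. In CD45- cells as a whole the ratio was 1.555 (1.47 to 1.65), and in CD45+ cells 0.912 (0.880 to 0.945). The neighbouring gene Hist4h4, at chr6:136801553-136804415 on the other strand, stood at 9.64 CPM at 4 Gy and 10.95 CPM at 0 Gy (0.880, 0.690 to 1.12) in CD45- cells.

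H1fx, which encodes the linker variant H1.10 and lies at chr6:87980421-87981637, was lower in CD45- cells of 4 Gy, at 9.56 CPM at 4 Gy and 18.7 CPM at 0 Gy (0.512, 0.409 to 0.637). The gene overlaps Gm47286 on the same strand, and reads in the shared stretch cannot be told apart. In cycling CD45- cells H1fx stood at 36.5 CPM at 4 Gy and 77.8 CPM at 0 Gy. In other CD45- cells it stood at 6.67 CPM at 4 Gy and 10.6 CPM at 0 Gy. The ratio of cycling over other cells was 5.47 (3.68 to 8.04) at 4 Gy and 7.33 (5.75 to 9.34) at 0 Gy. Of the cycling cells, 28 of 111 at 4 Gy and 49 of 150 at 0 Gy were tumour-epithelial-like, a class with a higher H1fx level than endothelial-like cells. Class and cycling cannot be told apart in this ratio. The part of cycling cells in the dose difference was not tested. H1fx was also lower in endothelial-like cells, at 7.46 CPM at 4 Gy and 12.4 CPM at 0 Gy (0.600, 0.437 to 0.818). In tumour-epithelial-like cells it stood at 33.1 CPM at 4 Gy and 102.5 CPM at 0 Gy (0.323, 0.155 to 0.610), with 36.4% of 11 counts in 1 cell at 4 Gy and 20.3% of 79 at 0 Gy, and at 0.0802 with cells that passed a second gate left out. H1f0, the other variant linker histone, which encodes H1.0, was close to level in CD45- cells, at 109.7 CPM at 4 Gy and 113 CPM at 0 Gy (0.974, 0.906 to 1.05).

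Aerocyte-like cells, 461 at 4 Gy and 614 at 0 Gy, did not share the lower H2A level. The H2A sum stood at 124 CPM at 4 Gy and 116 CPM at 0 Gy (1.06, 0.886 to 1.27), and 11 of these cells were cycling at 4 Gy and 6 at 0 Gy. Of 18 replication-dependent genes measured 5 were higher, where 11.6% of all genes were, and 0 were lower, where 5.66% were. Hist1h4k, for H4, stood at 30.5 CPM at 4 Gy and 18.8 CPM at 0 Gy (1.63, 1.07 to 2.495), with 4.84% of its counts in 1 cell at 4 Gy and 20.5% at 0 Gy. The replication-dependent sum was at 762 CPM at 4 Gy and 636.5 CPM at 0 Gy (1.20, 1.11 to 1.29).

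Tumour-epithelial-like cells had the highest replication-dependent levels among the 10 classes and few cells to show it. The sum stood at 984 CPM at 4 Gy and 1208 CPM at 0 Gy (0.8145, 0.716 to 0.925), with 16.8% of the counts in 1 cell at 4 Gy and 15.9% at 0 Gy. Hist1h2ap stood at 307 CPM at 4 Gy and 481.5 CPM at 0 Gy (0.638, 0.507 to 0.796), with 33.3% in 1 cell at 4 Gy and 25.9% at 0 Gy, and Hist1h2an at 36.1 and 99.9 CPM (0.361, 0.179 to 0.668). The H2A sum was at 0.613 (0.505 to 0.740) in all cells of the class and at 1.03 (0.544 to 1.86) with cycling cells left out, 28 at 4 Gy and 49 at 0 Gy. Mitosis markers stood at 578 CPM at 4 Gy and 1170.0 CPM at 0 Gy. Of 11 replication-dependent genes measured 2 were higher, where 16.0% of all genes were, and 4 lower, where 16.2% were.

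Among leukocytes the T-like class, 2460 cells at 4 Gy and 1293 at 0 Gy, had the lowest replication-dependent ratio. The sum stood at 706 CPM at 4 Gy and 1069 CPM at 0 Gy (0.660, 0.638 to 0.683), and the H2A sum at 368 CPM at 4 Gy and 692 CPM at 0 Gy (0.532, 0.509 to 0.556). Of 42 genes measured 13 were at least 1.5-fold lower, where 5.97% of all genes were, and 2 were higher, where 7.97% were. Hist1h2ap stood at 269.7 CPM at 4 Gy and 495 CPM at 0 Gy (0.545, 0.517 to 0.574), with the top cells at 7.94% of its counts at 4 Gy and 9.86% at 0 Gy, so that no one cell held most of it.

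Both the share of cycling T-like cells and the level within them were lower at 4 Gy. Of T-like cells 9.76% were cycling at 4 Gy and 12.5% at 0 Gy, with median depths of 3297.5 and 4085 UMIs. Hist1h2ap stood at 1191 CPM at 4 Gy and 1980.0 CPM at 0 Gy (0.602, 0.570 to 0.635) in cycling T-like cells, and at 26.1 CPM at 4 Gy and 36.2 CPM at 0 Gy (0.7205, 0.586 to 0.887) in the others. Mitosis markers of the class stood at 189 CPM at 4 Gy and 341 CPM at 0 Gy, and S-phase markers at 362 CPM at 4 Gy and 398 CPM at 0 Gy, and their part was not tested. Other genes lower in T-like cells were Hist1h2an (0.406, 0.350 to 0.469), Hist1h2aj (0.438), Hist1h2ak (0.441), Hist1h2ao (0.456), Hist1h2bj (0.470), Hist1h1a (0.473), Hist1h2ac (0.544), Hist3h2ba (0.546), Hist1h2ae (0.558), Hist3h2a (0.637) and Hist1h4k (0.646), each with an interval below 1. Hist1h2ae was at 1.80 and Hist1h2an at 0.7845 and Hist1h2ao at 0.0998 with cycling cells left out, Hist1h2aj at 0.863 with cells that passed a second gate left out, and Hist1h2ac at 0.899 and Hist3h2a at 0.974 after cells were thinned to 1000 UMIs. Hist1h2ao had 61 counts at 4 Gy and 83 at 0 Gy in all T-like cells. In CD45+ cells of 4 Gy, cycling cells held 81.3% of its counts. Its value of 0.0998 thus rests on few counts, and no interval is given for it. Hist3h2a overlaps Trim17 on the same strand, and such reads cannot be told apart.

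In the B-like class, 3540 cells at 4 Gy and 2351 at 0 Gy, the H3 genes were higher. The H3 sum stood at 41.4 CPM at 4 Gy and 25.8 CPM at 0 Gy (1.61, 1.37 to 1.90), with Hist1h3d at 4.75 and 1.65 CPM (2.87, 1.57 to 5.605), Hist1h3f at 3.47 and 1.54 CPM (2.26, 1.18 to 4.62) and Hist1h3e at 7.12 and 4.73 CPM (1.51, 1.02 to 2.26). Hist4h4 stood at 7.575 CPM at 4 Gy and 4.02 CPM at 0 Gy (1.885, 1.25 to 2.90), and Hist1h2be at 11.2 and 6.97 CPM (1.61, 1.17 to 2.235). Thinned to 1000 UMIs per cell, Hist1h3f was at 4.97. All 5 genes run on past the stem-loop in the annotation. Hist1h2be overlaps Hist1h1e on the same strand, with its 5′ end over the 3′ end of Hist1h1e, and reads in that stretch cannot be told apart.

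The H2A genes of B-like cells did not take part. Hist1h2ap was level at 188.5 CPM at 4 Gy and 187 CPM at 0 Gy (1.01, 0.942 to 1.075). Lower genes were Hist2h2ac, an H2A gene, at 5.84 CPM at 4 Gy and 9.69 CPM at 0 Gy (0.603, 0.428 to 0.846), and Hist1h2ao (0.412, 0.2595 to 0.643), with 9.38% of 32 counts in 1 cell at 4 Gy and 55.0% of 60 at 0 Gy. Hist1h2ao was at 1.003 with cycling cells left out. Of 41 replication-dependent genes in B-like cells 8 were higher, where 9.43% of all genes were, and 3 were lower, where 4.0% were.

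In the NK-like class, 849 cells at 4 Gy and 405 at 0 Gy, the linker histones were higher. The H1 sum stood at 282 CPM at 4 Gy and 175 CPM at 0 Gy (1.62, 1.39 to 1.89). Hist1h1e, which encodes H1.4, stood at 121 CPM at 4 Gy and 65.5 CPM at 0 Gy (1.84, 1.44 to 2.38), with the top cells at 4.72% of its counts at 4 Gy and 3.45% at 0 Gy, and Hist1h1d at 40.9 and 23.35 CPM (1.75, 1.15 to 2.73). The 3′ end of Hist1h1e overlaps Hist1h2be on the same strand, and reads in that stretch cannot be told apart. Hist1h4i, for H4, stood at 29.5 CPM at 4 Gy and 15.1 CPM at 0 Gy (1.96, 1.17 to 3.42). With cells that passed a second gate left out Hist1h1d was at 2.665. Of 25 genes measured 8 were higher, where 12.7% of all genes were, and 0 were lower, where 5.29% were.

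The H2A value of NK-like cells rested on 1 irradiated cell. Hist1h2ap stood at 139 CPM at 4 Gy and 85.1 CPM at 0 Gy (1.64, 1.31 to 2.05), with 50.9% of 293 counts in 1 cell at 4 Gy and 3.54% of 113 at 0 Gy. The 4 Gy cell had 149 Hist1h2ap counts, 18422 UMIs and 26 of the 30 cell-cycle markers. Without the top cell of each library the ratio was 0.836, and outside the cycling gate 0.80 (0.612 to 1.05). Mitosis markers stood at 102 CPM at 4 Gy and 27.1 CPM at 0 Gy in this class.

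The neutrophil-like and macrophage-like values were also bound to few cells. In neutrophil-like cells Hist1h2ap stood at 70.1 CPM at 4 Gy and 46.9 CPM at 0 Gy (1.49, 1.11 to 2.05), with 21.9% in 1 cell at 4 Gy and 7.27% at 0 Gy, and the H2A sum outside the cycling gate was at 0.941 (0.756 to 1.18). Of 23 genes 8 were higher, where 10.1% of all genes were, and 2 lower, where 9.92% were. In interstitial macrophage-like cells, 209 at 4 Gy and 92 at 0 Gy, Hist1h2ap stood at 195 CPM at 4 Gy and 282 CPM at 0 Gy (0.692, 0.588 to 0.815), with 37.8% in 1 cell at 4 Gy and 50.8% at 0 Gy. Mitosis markers stood at 136 CPM at 4 Gy and 365 CPM at 0 Gy in these cells.

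Single genes passed in the monocyte-like and macrophage-like classes. Hist1h2an in interstitial macrophage-like cells was at 16.35 CPM at 4 Gy and 44.4 CPM at 0 Gy (0.368, 0.223 to 0.603), with 51.6% in 1 cell at 4 Gy and 45.0% at 0 Gy, and at 1.29 without cycling cells. Hist1h2bc in the same cells was at 70.2 CPM at 4 Gy and 45.5 CPM at 0 Gy (1.54, 1.08 to 2.24), and at 1.05 with cells that passed a second gate left out. Hist1h1c was higher in nonclassical monocyte-like cells, at 116 CPM at 4 Gy and 68.75 CPM at 0 Gy (1.69, 1.17 to 2.46). In interstitial macrophage-like cells 3 of 13 replication-dependent genes were higher and 3 lower, where 10.4% and 10.3% of all genes were. In nonclassical monocyte-like cells these were 2 and 2 of 9, where 10.5% and 9.94% of all genes were, and in classical monocyte-like cells 4 and 2 of 16, where 14.9% and 5.42% were.

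H3f3a gave the most uniform difference among the abundant members. H3f3a, at chr1:180800832-180813943 on the minus strand, was lower at 4 Gy in all 10 classes, with ratios from 0.6215 (0.532 to 0.723) in tumour-epithelial-like cells to 0.860 (0.833 to 0.887) in endothelial-like cells, and with each interval below 1. Of the 4899 genes measured in all 10 classes, 4 did so, or 0.0816%. The ratio was below 1 in every class for 1.59% of these genes and above 1 in every class for 1.41%. Genes with few counts have wide intervals and can hardly meet the interval rule, while H3f3a held 82434 counts over the 4 libraries. It was not set against genes of like count. In CD45- cells H3f3a stood at 780.3 CPM at 4 Gy and 910.2 CPM at 0 Gy (0.857, 0.835 to 0.880), and in CD45+ cells at 824 CPM at 4 Gy and 1213 CPM at 0 Gy (0.679, 0.668 to 0.690).

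By class, H3f3a kept the same order of doses at very different levels. B-like cells had 1273 CPM at 4 Gy and 1900.0 CPM at 0 Gy (0.670, 0.655 to 0.686), classical monocyte-like cells 1166 and 1627 CPM (0.717, 0.674 to 0.763), nonclassical monocyte-like cells 1101 and 1381 CPM (0.797, 0.726 to 0.8755) and neutrophil-like cells 842 and 1046 CPM (0.805, 0.7515 to 0.8625). T-like cells had 418 CPM at 4 Gy and 573 CPM at 0 Gy (0.728, 0.696 to 0.762), NK-like cells 471 and 631 CPM (0.746, 0.680 to 0.819), interstitial macrophage-like cells 516.5 and 656.5 CPM (0.787, 0.710 to 0.873) and aerocyte-like cells 759.9 and 925 CPM (0.822, 0.768 to 0.879). No cell held more than 10.2% of the H3f3a counts of any class and dose. The class ratios are not independent of each other, since the 7 leukocyte classes share a pair of libraries and the 3 other classes share the other pair.

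H3f3b, which encodes the same protein, at chr11:116021912-116027962, did not follow. Its ratio was 1.03 (1.01 to 1.06) in CD45- cells and 0.985 (0.971 to 0.999) in CD45+ cells, and lay between 0.8105 (0.7335 to 0.895) in nonclassical monocyte-like cells and 1.115 (1.05 to 1.18) in aerocyte-like cells. The H3f3a share of the tags of both genes was lower at 4 Gy: 39.4% (39.1% to 39.8%) at 4 Gy, against 48.6% (48.2% to 49.0%) at 0 Gy, in CD45+ cells, and 38.5% (37.9% to 39.1%), against 43.0% (42.4% to 43.5%), in CD45- cells. In B-like cells it was 50.1% (49.6% to 50.7%) at 4 Gy and 58.8% (58.2% to 59.4%) at 0 Gy. In nonclassical monocyte-like cells, at 52.9% (50.5% to 55.3%) at 4 Gy and 53.3% (50.9% to 55.7%) at 0 Gy, the intervals overlapped. The coding sequences of the pair are 76.9% identical. A share within a pair shows unequal change and not which gene changed. H3f3a overlaps H3f3aos on the other strand, which held 2.65 CPM at 4 Gy and 3.96 CPM at 0 Gy in CD45- cells.

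**Figure D5:**
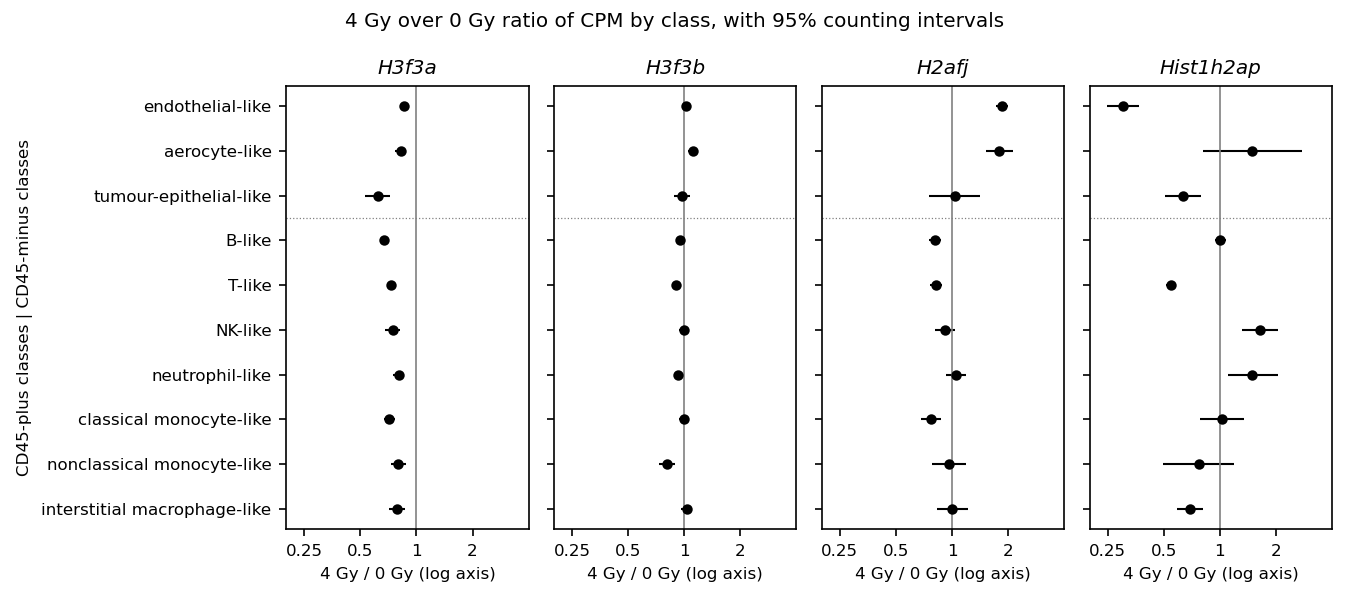
Ratio of CPM, 4 Gy over 0 Gy (log axis), of H3f3a, H3f3b, H2afj and Hist1h2ap in the 3 CD45- classes and the 7 CD45+ classes, with 95% counting intervals. H3f3a lies left of 1 in all 10 classes, H3f3b lies around 1, H2afj lies at 1.85 and 1.80 in the endothelial-like and aerocyte-like classes, and Hist1h2ap ranges from 0.303 to 1.64.

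The other abundant variant genes were less uniform over the classes. H2afz, which encodes H2A.Z.1, stood at 0.872 (0.785 to 0.968) in CD45- cells and 0.720 (0.677 to 0.766) in CD45+ cells. It was below 1 in 9 of 10 classes, with intervals below 1 in T-like cells (0.6475, 0.5695 to 0.736), classical monocyte-like cells (0.616, 0.496 to 0.7655), NK-like cells (0.785, 0.677 to 0.911) and B-like cells (0.814, 0.699 to 0.948). In aerocyte-like cells it stood at 41.4 CPM at 4 Gy and 27.9 CPM at 0 Gy (1.48, 1.05 to 2.11), and at 0.943 after cells were thinned to 1000 UMIs. H2afv, which encodes H2A.Z.2, was at 0.953 (0.903 to 1.005) in CD45- cells and 0.956 (0.915 to 0.999) in CD45+ cells. Its 1 ratio past 1.5-fold was in interstitial macrophage-like cells, at 50.65 CPM at 4 Gy and 86.6 CPM at 0 Gy (0.585, 0.429 to 0.7985), with 5.21% of its counts in 1 cell at 4 Gy and 20.5% at 0 Gy. H2afy, for macroH2A1, was close to level, at 1.06 (0.996 to 1.12) in CD45- cells and 1.01 (0.981 to 1.04) in CD45+ cells, and between 0.995 and 1.27 over the 10 classes.

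Of the abundant genes with a Hist name, Hist1h2bc was above 1 in all 10 classes. Hist1h2bc, an H2B gene at chr13:23684199-23692908, stood at 160.0 CPM at 4 Gy and 131 CPM at 0 Gy (1.22, 1.14 to 1.30) in CD45- cells and at 45.2 CPM at 4 Gy and 31.5 CPM at 0 Gy (1.44, 1.32 to 1.57) in CD45+ cells. Over the classes it ranged from 1.07 (0.931 to 1.24) in neutrophil-like cells, which had its highest level with 248 CPM at 4 Gy and 231 CPM at 0 Gy, to 5.47 (1.68 to 28.2) in NK-like cells, where 0 Gy had 3 counts. With cells that passed a second gate left out it was at 0.728 in nonclassical monocyte-like cells. Its coding sequence is 98.4% identical to that of Hist1h2be, which stood at 1.33 (1.105 to 1.60) in CD45- cells and 1.48 (1.26 to 1.745) in CD45+ cells.

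The H1 genes with the most tags differed less over whole sorts. Hist1h1c, at chr13:23738808-23740367, stood at 0.988 (0.920 to 1.06) in CD45- cells and 1.26 (1.18 to 1.33) in CD45+ cells, where all 7 classes were above 1. Hist1h1e, at chr13:23620629-23622558, stood at 0.940 (0.869 to 1.02) in CD45- cells and 0.999 (0.930 to 1.07) in CD45+ cells. Among rarer members of CD45+ cells Hist1h2bq stood at 2.27 (1.28 to 4.24), and at 4.54 thinned to 1000 UMIs per cell, Hist1h3i, an H3 gene, at 1.88 (1.09 to 3.35), and Hist1h2an at 0.553 (0.503 to 0.609). The other measured replication-dependent members of that sort lay between 0.413, for Hist1h2ai with 15 counts at 4 Gy and 24 at 0 Gy, and 1.60, for Hist1h3g with 17 and 7.

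Few genes that act on histone mRNA or histones passed 1.5-fold over whole sorts. The list held the makers and binders of histone mRNA ends (Slbp, Npat, Lsm10, Lsm11 and others), chaperones that carry and place histones (Nasp, Asf1a, Hira, Daxx, Atrx and others) and genes for entry into S phase, and 35 of its genes were found. In CD45- cells 33 were measured, of which 0 were higher, where 9.5% of all genes were, and 1 was lower, where 7.3% were: Chaf1b, of the chromatin assembly factor, at 3.45 CPM at 4 Gy and 5.44 CPM at 0 Gy (0.635, 0.428 to 0.930). In CD45+ cells all 35 were measured, of which 0 were higher, where 8.33% of all genes were, and 1 was lower, where 5.47% were: Ccne2, for cyclin E2, at 1.02 CPM at 4 Gy and 1.54 CPM at 0 Gy (0.660, 0.407 to 1.07), with an interval across 1.

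Slbp, which binds the stem-loops shown above, stood at 13.5 CPM at 4 Gy and 12.5 CPM at 0 Gy (1.08, 0.8715 to 1.34) in CD45- cells and at 21.2 CPM at 4 Gy and 26.8 CPM at 0 Gy (0.792, 0.713 to 0.881) in CD45+ cells. In NK-like cells it stood at 35.65 CPM at 4 Gy and 54.2 CPM at 0 Gy (0.657, 0.469 to 0.921), the opposite direction to the H1 genes there. By class, 0 of 31 passed in endothelial-like cells, where 10.1% of all genes were higher and 6.89% lower. In B-like cells 0 of 33 passed, where 9.43% of all genes were higher and 4.0% lower. Of 28 in aerocyte-like cells 0 were higher and 1 was lower, where 11.6% and 5.66% of all genes were. Of 24 in tumour-epithelial-like cells 4 were higher and 1, Hjurp, was lower, where 16.0% and 16.2% of all genes were. Of 30 in NK-like cells 2 were higher and 3 lower, where 12.7% and 5.29% were, and of 27 in neutrophil-like cells 0 were higher and 3 lower, where 10.1% and 9.92% were. Of 28 in classical monocyte-like cells 3 were higher and 1 lower, where 14.9% and 5.42% of all genes were. Of 24 in nonclassical monocyte-like cells 2 were higher and 0 lower, where 10.5% and 9.94% were. Of 29 in interstitial macrophage-like cells 2 were higher and 3 lower, where 10.4% and 10.3% were. In T-like cells 3 of 33 were lower, where 5.97% of all genes were, and 0 were higher, where 7.97% were. The lower ones were Asf1b, a chaperone of H3 and H4 (0.643, 0.467 to 0.8855), Ccne1 for cyclin E1 (0.657, 0.464 to 0.931) and Ccne2 (0.334, 0.113 to 0.900). Those with many counts were near level in CD45- cells, such as Atrx, which helps to place H3.3, at 325 CPM at 4 Gy and 320.1 CPM at 0 Gy (1.02, 0.974 to 1.06), and Rbbp4, a histone-binding subunit of several chromatin complexes, at 0.948 (0.881 to 1.02). Cenpa, the centromeric H3, was at 0.687 (0.589 to 0.801) in CD45- cells and 0.824 (0.765 to 0.888) in CD45+ cells.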

How the data were processed

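Cells of 4 libraries were measured with 10x Genomics 3′ chemistry on poly(A) RNA, per the labels' protocols. The deposited tables hold log2 values, log2(CPM + 1) per cell, made by the authors; the submitters' processing notes name STAR, Partek, Seurat and the build mm10, with roles and versions not given in the sources used here. Counts had been planned for, so whole UMIs were recovered from the log2 values (at least 99.9993% whole within 0.02). Total UMIs per library were 12448164 to 36423571.

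Members and lists were chosen with earlier results of these data known. A cell entered the class with the most detected markers of 20 lists (at least 2), with ties left out; cells that passed a second gate were to be left out too, but too few cells would have remained, so that version is an alternative. Doublets were not removed: Scrublet's highest scores are an alternative. Class sums of UMIs in each library were turned into CPM, with exact Poisson intervals and exact conditional binomial intervals of ratios (95%), which cover counting error only; the ratio step was tested on simulated data. A gene was measured from 20 counts over both libraries. Named genes were the 10 with the most UMIs, the 3 with the most per kind and library, and, in a class, those with at least 50 counts, 1.5-fold and an interval that excludes 1 (the 10 widest, with others shown where they passed), and those with over 20% of counts in 1 cell. Alternatives were thinning to 1000 UMIs, leaving out cycling or top cells, means over cells, other count minimums, scalings and gates. Sequences were read from the GRCm38 annotation's transcripts. Python 3.11.15, numpy 2.4.6, scipy 1.17.1, pandas 2.3.3 and scanpy 1.11.5 were used.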

Additional observations from a re-analysis of the deposited data

Results flagged for a closer look

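Hist1h2ap went opposite ways in a pair of lymphocyte classes from the same libraries. It was lower at 4 Gy in T-like cells, at a ratio of 0.5446, and higher in NK-like cells, at 1.636. The difference between the classes was not tested, since each dose has 1 library. The NK-like value was 0.836 without the top cell of each library.

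H2afj went opposite ways in the sorts. It was higher at 4 Gy in CD45- cells, at 1.555, and lower in CD45+ cells, at 0.9118. This difference was not tested either.

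Barcodes with an equal number of markers of several classes, 469 at 4 Gy and 253 at 0 Gy in the CD45+ sort, entered no class. Their replication-dependent sum stood at 771 CPM at 4 Gy and 562 CPM at 0 Gy, a ratio of 1.373 (1.29 to 1.46), above the mock-treated level.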

How the results depend on the processing

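With cycling cells left out, the ratio of 4 Gy over 0 Gy turned in CD45- cells for Hist1h2ap (1.355), Hist1h2an (1.221), Hist1h2ae (1.24) and Hist1h1b (1.165), in endothelial-like cells for Hist1h2ap (1.731), Hist1h2ae (1.775) and Hist1h2an (2.104), in tumour-epithelial-like cells for the H2A sum (1.031), in B-like cells for Hist1h2ao (1.003), in T-like cells for Hist1h2ae (1.796), in NK-like cells for Hist1h2ap (0.80) and in interstitial macrophage-like cells for Hist1h2an (1.292). Some of these values rest on few counts, such as Hist1h1b in CD45- cells with 3 counts at 0 Gy outside the cycling gate. With cycling cells left out the replication-dependent sum was at 1.095 in CD45- cells and 1.029 in CD45+ cells, and the variant sum at 1.005 in CD45- cells. Histone genes past 1.5-fold were then 5 higher and 7 lower in CD45- cells, against 3 and 13 in all cells. In CD45+ cells 7 were higher and 2 lower, against 3 and 5. With no cells left out, 9.5% of all genes were higher and 7.3% lower in CD45- cells, and 8.33% and 5.47% in CD45+ cells. These shares are not given under the other settings, so the counts of histone genes below cannot be set against all genes. Hist1h2ap in NK-like cells was at 0.8358 without the top cell, 0.9045 as a mean over cells, 0.919 thinned to 1000 UMIs per cell and 0.9651 with cells that passed a second gate left out. That last setting, chosen after seeing the data, also turned Hist1h2ap in tumour-epithelial-like cells (1.057) and Hist1h2bc in nonclassical monocyte-like cells (0.7281). Without the top cell the replication-dependent sum of CD45- cells was at 1.004. As a mean over cells it was at 1.021 in CD45- and 0.9976 in CD45+ cells, the variant sum at 1.002 in CD45- cells, and 7 genes in CD45- and 8 in CD45+ cells were higher. Thinned, it was at 1.029 in CD45- and 1.015 in CD45+ cells, the variant sum at 0.8478 in CD45+ cells, 8 genes were lower in CD45- and 6 higher in CD45+ cells, and in interstitial macrophage-like cells the H2A sum was at 1.051 and Hist1h2an at 1.34. Scaled by the median of ratios, the replication-dependent sum was at 0.9401 in CD45- and 0.8873 in CD45+ cells and the variant sum at 0.9565 and 0.8439. With 5 CPM added, 1 gene was higher and 6 lower in CD45- cells and 0 higher and 1 lower in CD45+ cells. With at least 10 counts asked, 5 genes were higher in CD45- cells, and with at least 50 counts 6 were lower in CD45- and 1 in CD45+ cells. With the barcodes of highest Scrublet score left out, 5 genes were higher in CD45- cells. The ratio of cycling over other cells, thinned, was for the replication-dependent sum 1.156 at 4 Gy and 3.822 at 0 Gy in CD45- cells and 2.522 and 3.069 in CD45+ cells, and for the variant sum 1.18 in CD45- cells of 4 Gy and 0.8955 in CD45+ cells of 0 Gy. With at least 5 cell-cycle markers asked, the replication-dependent ratio was 2.629 in CD45- cells of 0 Gy and 6.602 at 4 Gy and 9.055 at 0 Gy in CD45+ cells, and the variant ratio 1.299 at 4 Gy and 1.464 at 0 Gy in CD45- cells and 0.9985 in CD45+ cells of 4 Gy. The causes of these shifts were not tested. H3f3a stayed below 1 in all 10 classes under the settings run.

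No paired analysis was possible because each dose and sort has 1 library. The spread between mice was not measured: the intervals cover counting error only, and at this depth genes with few counts have wide intervals.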
